A study of Homo sapiens with 12 samples.

Results

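S100 and annexin genes encode 2 families of calcium-binding proteins, and their transcripts are described here in H82 and H211, 2 established lines of human small cell lung cancer. The list held 31 genes, 19 S100 genes and 12 annexins, of 56508 gene symbols in the deposited table, and was taken by symbol. It was chosen by a measured value: 2 of its members, ANXA1 and S100A14, were lower in H211 with the drug. Levels and calls of all members in that comparison are therefore a description, given without p-values, and nothing is read from them. Both lines are wild type by their labels. Cultures received either vehicle, labelled PBS, or 1 µM ORY-1001, which inhibits the histone demethylase LSD1, and messenger RNA was sequenced in 4 groups of 3 libraries. The sample labels give 7 days of treatment and the protocol gives 10. Each background rests on 1 line, and nothing in the labels says that replicates came from separate cultures, so each p-value reflects spread among these libraries alone, which may be technical.

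Most S100 proteins are small dimers with a pair of EF hands, which typically, though not in every member, open on binding calcium and then hold a target protein. Annexins bind acidic membrane lipids in the presence of calcium and act in membrane repair, vesicle traffic and the control of inflammation. The families meet directly: S100A10 clamps the N terminus of annexin A2, and S100A11 that of annexin A1.

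All levels are the deposited TPM values, an abundance per transcript length, which seem to have been rescaled between libraries, and fold changes between groups are ratios of group means. Tests were run on log2(TPM + 1), which understates changes of low genes, with limma over 15456 genes at 1 or more in at least 3 of the 12 libraries, and a gene was called at a Benjamini-Hochberg adjusted p under 0.05. Column totals ran from 967415 to 1111988, depth is unknown, and across genes r between replicates was 0.988 to 0.991. KDM1A, which encodes LSD1, lay between 181 and 195 in all libraries; the drug inhibits the enzyme, so this checks no label. Tuft-cell markers (7 genes, among them POU2F3) summed to 1408 to 1423 in H211 controls and 21.8 to 28.3 in H82 controls, and neuroendocrine markers (7 genes, among them NEUROD1) to 90.9 to 93.6 and 611 to 629. With ORY-1001 the neuroendocrine sum of H82 was 441 to 447 and the tuft-cell sum of H211 was 1097 to 1134. Bulk RNA cannot tell fewer cells with a transcript from less of it per cell.

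Libraries differed in blood-cell transcripts. Of 14 myeloid markers, the summed level in H82 was 1.07, 1.03 and 1.30 for vehicle and 35.0, 38.5 and 28.9 after treatment. In H211 it was 30.7, 58.3 and 3.43 and 2.40, 3.34 and 38.0 in the same order. Each treated H82 library was thus above every H82 control, and in H211 the high libraries were control replicates 1 and 2 and treated replicate 3. Over 10 red-cell markers, the sum was 49.6, 56.8 and 42.0 in H82 controls and 1.85, 1.91 and 118 after treatment, and over all 12 libraries it ran from 0.306 to 118. No marker of either list was at 0 in all libraries, but a few genes made up most of each sum. Among red-cell markers HBG2 reached 53.0 and HBB 0.237 at most. In treated H82, LYZ lay at 15.98, 18.7 and 0.583 and MPO at 8.71, 8.55 and 24.3. There FCN1 and ITGAM did not exceed 0.159 and 0.0234. No treated H82 library was free of myeloid transcripts, so these and the drug cannot be told apart in H82, and their part in the results was not tested.

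Of the 31 genes, 19 passed the filter on low values: 9 of 19 S100 genes and 10 of 12 annexins. Another 12 did not. S100A7, S100G and ANXA10 were listed at 0 in every library. S100B, S100P, S100Z, S100A3 and ANXA8 stayed under 1 throughout, S100A5 reached 1 in 1 H82 control, and S100A8, S100A9 and S100A12 did so in 1 H211 control. Just inside the filter were ANXA9, at 1.73, 1.18 and 1.18 in H211 controls, and ANXA13, at 1.35, 1.28 and 1.65, each at 1 or more in those 3 libraries alone. Just outside were S100A3, with a highest value of 0.981, and S100A5, at 0.635, 0.927 and 1.05 in H82 controls. S100A14, ANXA3, ANXA9 and ANXA13 passed only through H211, where they are high, and so had to be higher there.

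**Figure D1:**
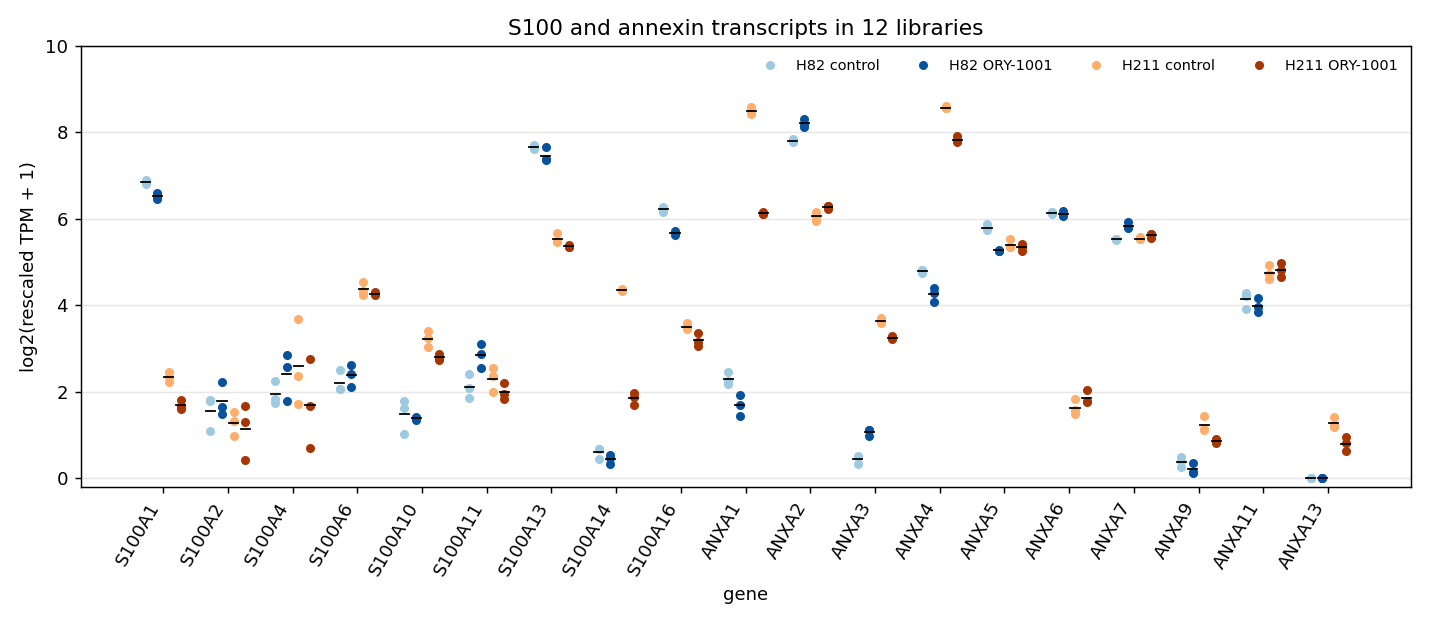
Each point is 1 library and each black line the mean of 3, for the 19 genes that passed the filter on low values, on an axis of log2(TPM + 1); colours mark the line and treatment. ANXA1, ANXA4, ANXA3, S100A14 and S100A6 sit higher in H211, while S100A1, S100A13, S100A16, ANXA2 and ANXA6 sit higher in H82.

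The untreated lines carried different sets of annexins. In H211 controls ANXA4, an annexin of secretory epithelia, lay at 377, 387 and 376 and ANXA1, a glucocorticoid-induced protein that restrains inflammation, at 342, 353 and 381. These ranges overlapped, and the pair made up 40.7% and 38.4% of all annexin transcripts there. Next came ANXA2 at 65.7 ± 4.91 (SD, n = 3), ANXA7 at 45.6 ± 0.731, ANXA5 at 41.4 ± 3.35, ANXA11 at 26.0 ± 3.07 and ANXA3 at 11.5 ± 0.555. In that order the values of ANXA7 and ANXA5 overlapped, and ANXA2, ANXA11 and ANXA3 overlapped no neighbour. H82 controls instead held ANXA2, a coreceptor for plasminogen at the cell surface, at 219, 231 and 222, or 50.7% of the family. ANXA6, whose core of annexin repeats is duplicated, followed at 69.5 ± 0.980, then ANXA5 at 54.7 ± 2.69, ANXA7 at 45.0 ± 0.632, ANXA4 at 26.7 ± 0.837 and ANXA11 at 16.7 ± 2.26, with no overlap between neighbours. All 12 annexins together summed to 908 to 953 in H211 controls and 433 to 448 in H82 controls.

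Between the controls, 15 of the 19 tested genes were called, 9 higher in H211 and 6 higher in H82, where 80.5% of all tested genes were called, 39.7% higher and 40.8% lower in H211. Of the 9, ANXA1 and S100A14 carry no test here, and S100A14, ANXA3, ANXA9 and ANXA13 had to be higher by the filter, so nothing is read from this count. Beside them 4 were higher in H211 (S100A6, S100A10, ANXA4 and ANXA11) and 6 lower. The same 15 had groups that did not overlap (9 higher, 6 lower in H211), as did 81.7% of all tested genes (40.4% and 41.3%). The same H211 controls enter the comparison by which ANXA1 and S100A14 were chosen, so these 2 are given without a test: ANXA1 was 91.4-fold higher in H211, against 4.53, 3.50 and 3.75 in H82, and S100A14, an S100 protein of epithelia, 37.4-fold, at 19.4, 19.3 and 19.7 against 0.362, 0.598 and 0.600. ANXA4 was 14.2-fold higher in H211 (log2 difference 3.78, SE 0.0729, adjusted p = 1.45e-12). ANXA3 was 31.5-fold higher and ANXA9 4.44-fold, both from H82 levels under 1, and ANXA13, an annexin known from intestinal epithelium, was listed at 0 in all H82 libraries. ANXA11, which tethers RNA granules to lysosomes, was 1.56-fold higher in H211 (adjusted p = 0.000636). In the other direction ANXA6 was 32.8-fold higher in H82 (log2 difference -4.51, SE 0.0939, adjusted p = 2.64e-12), ANXA2 3.41-fold (adjusted p = 1.06e-10) and ANXA5, a binder of phosphatidylserine used to stain dying cells, 1.32-fold (adjusted p = 8.64e-05). ANXA7 was at 45.4, 45.4 and 44.3 in H82 and 46.5, 45.2 and 45.3 in H211 (log2 difference 0.02, SE 0.0445, adjusted p = 0.707); with totals without the mitochondrial genes its log2 difference was 0.20 and was called, a scaling that moved the median of all genes from -0.02 to 0.14.

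S100 genes split the same way, with most of the H82 signal in neighbouring genes. S100A13, which takes part in the export of FGF1, lay at 199, 207 and 194 in H82 controls and 43.1, 43.8 and 50.3 in H211, 4.38-fold higher in H82 (adjusted p = 2.33e-10). S100A1, a regulator of calcium handling in muscle, lay at 111, 118 and 116 against 4.04, 3.71 and 4.46, 28.3-fold higher in H82 (log2 difference -4.52, SE 0.0714, adjusted p = 3.48e-13). S100A16 lay at 76.9, 75.0 and 70.6 against 11.1, 9.95 and 10.1, 7.14-fold higher in H82 (adjusted p = 1.92e-11). These 3 genes made up 49.4%, 28.4% and 18.3% of S100 transcripts in H82 controls. S100A6, or calcyclin, was 5.38-fold higher in H211, at 17.8, 19.3 and 22.3 against 3.18, 4.66 and 3.19 (adjusted p = 4.08e-08). S100A10, the partner of annexin A2, was 4.53-fold higher in H211, at 8.41, 9.60 and 7.21 against 1.03, 2.08 and 2.47 (adjusted p = 1.38e-06). S100A2, S100A4 and S100A11 had adjusted p = 0.427, 0.291 and 0.385.

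S100A16, S100A14, S100A13 and S100A1 lie side by side on chromosome 1. In GENCODE release 29 (GRCh38), 15 of the 19 S100 genes lie on chromosome 1 between 151982915 and 153632039, and the last 4 in that order are S100A16 (153606886 to 153613145), S100A14 (153614255 to 153616986), S100A13 (153618787 to 153631360) and S100A1 (153627926 to 153632039). S100A14 stands 1109 bases from S100A16 and 1800 from S100A13, all 3 on the minus strand. Of the 4 it is the one with the higher level in H211, which the filter fixed, as it passed only through H211. S100A1, on the plus strand, overlaps S100A13 with 235 shared exon bases. The protocol does not state a strand-marking library, so reads from those bases cannot be told apart, and the separate levels of S100A1 and S100A13 are uncertain. S100A13 also shares 536 exon bases with AL162258.1 on its own strand, and S100A1 shares 320 with the antisense AL162258.2 and 34 with AL162258.1. ANXA7 shares 105 exon bases with an antisense transcript and S100A6 shares 23, with the same limit.

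**Figure D2:**
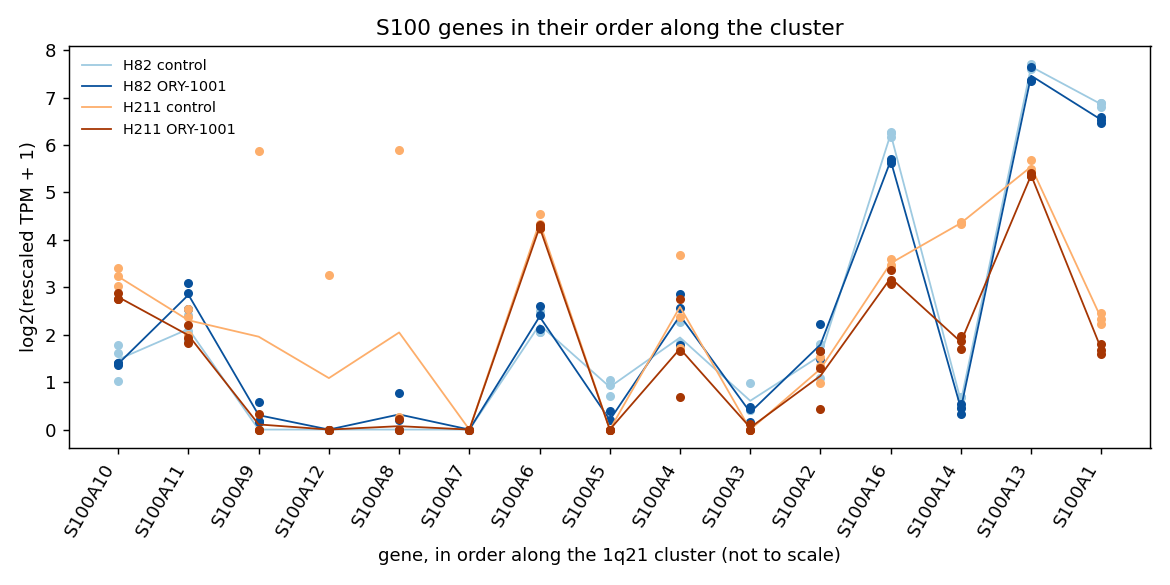
The 15 S100 genes of the chromosome 1 cluster are set in their order along it, not to scale, with log2(TPM + 1) on the vertical axis. Points are libraries and lines join group means; S100A14 is high in H211 controls between neighbours that are high in H82, and S100A8, S100A9 and S100A12 are high in 1 H211 control only.

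Upstream sequences are shown for 3 genes that stand for these patterns: ANXA1 and S100A14, high in H211 and lower there with the drug, and S100A1, high in H82. They come from RefSeq's upstream windows on GRCh38.p14, the 250 bases before each RefSeq start, read 5′ to 3′ on the gene's strand. Only the longest stretch outside GENCODE exons is printed, and for ANXA1 also the 30 bases around a TATA box. The S100A14 and S100A1 stretches precede the RefSeq start but lie inside the longer GENCODE genes, between annotated exons. That of S100A1 also lies inside S100A13. Capitals mark any match, on either strand, to 4 motifs: the octamer bound by POU factors (ATGCAAAT), a TATA box (TATAAA), the core of GFI1 sites (AATCAC) and the E-box CAGCTG. The stretches lie at chr9:73151615-73151756, plus strand, at chr9:73151822-73151851, plus strand, at chr1:153616356-153616575, minus strand, and at chr1:153628249-153628383, plus strand.
ANXA1 upstream: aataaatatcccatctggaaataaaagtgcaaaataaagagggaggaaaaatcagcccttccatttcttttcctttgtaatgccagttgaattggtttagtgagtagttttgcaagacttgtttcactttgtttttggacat
ANXA1 TATA site: cctttaaaatccTATAAAatcagaagccca
S100A14 upstream: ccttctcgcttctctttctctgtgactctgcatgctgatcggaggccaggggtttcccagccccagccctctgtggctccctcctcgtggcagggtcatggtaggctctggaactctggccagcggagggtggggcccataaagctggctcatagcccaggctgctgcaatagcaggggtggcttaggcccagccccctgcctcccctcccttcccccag
S100A1 upstream: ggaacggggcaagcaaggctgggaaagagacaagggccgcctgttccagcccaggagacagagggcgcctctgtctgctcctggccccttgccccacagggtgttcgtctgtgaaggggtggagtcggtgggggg
The ANXA1 window holds a TATA box that begins 31 bases before the RefSeq start, inside the first exon of a longer GENCODE transcript. Its G+C content over 250 bases is 38.4%, with no CpG. The windows of S100A14 and S100A1 hold none of the 4 motifs, and their G+C content is 63.2% and 64%, with 4 and 6 CpG. Over all 35116 windows of RefSeq starts the median G+C content was 58%, and over the 39 windows of the 28 listed genes found there it was 58.8%. None of the 4 strings contains another. TATAAA occurred in 14 of these 39 windows against 10.7% of all, AATCAC in 8 against 9.02%, CAGCTG in 5 against 14%, and the octamer in 0 against 1.63%. A match of letters is no evidence of binding, and its absence says only that the letters are not in this window.

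In H211 the drug comparison, which chose the list, showed lower sums of both families. These sums include ANXA1 and S100A14, by which the list was chosen, so nothing is read from them. ANXA1 (chromosome 9, 73151757 to 73170393, plus strand) lay at 342, 353 and 381 in controls and 70.4, 68.7 and 68.0 with ORY-1001, 5.20-fold lower (log2 difference -2.36, SE 0.110). S100A14 lay at 19.4, 19.3 and 19.7 and 2.66, 2.25 and 2.91, 7.46-fold lower (log2 difference -2.51, SE 0.102). For both, the treated libraries stood far below every control. ANXA4 (chromosome 2, 69644425 to 69827100, plus strand) lay at 377, 387 and 376 and 239, 217 and 225, 1.68-fold lower (log2 difference -0.74, SE 0.0729), again without overlap. The mean of ANXA4 dropped by 153 TPM and that of ANXA1 dropped by 289.7, out of a total that dropped by 434 for all annexins. The annexin sum went from 908 to 953 to 490 to 509, a range which overlapped that of treated H82, 473 to 523. The summed tuft-cell markers moved the same way in H211, from 1408 to 1423 to 1097 to 1134. Of the 7 markers 3 were called lower (CHAT, BMX and SOX9) and 4 were not called, where 9.61% of all genes were lower. POU2F3 lay at 281 ± 3.91 in controls and 251 ± 9.85 with the drug, and ASCL2 at 176 ± 2.46 and 181 ± 3.61. The part of the tuft-cell markers in the annexin levels was not tested.

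Of the other 16 tested members, 4 more were called lower and 1 higher, and 11 were not called. ANXA3 lay at 11.1, 11.2 and 12.1 in H211 controls and 8.45, 8.73 and 8.38 with the drug, and ANXA13 at 1.35, 1.28 and 1.65 and 0.926, 0.536 and 0.745. S100A1 lay at 4.04, 3.71 and 4.46 and 2.52, 2.18 and 2.03, 1.81-fold lower, and S100A16 at 11.1, 9.95 and 10.1 and 9.33, 7.39 and 7.87. In each of these 4 genes, all called lower, the treated libraries were below every control. For ANXA13 the filter fixed this, as only the 3 H211 controls brought it to 1 or more. ANXA2 alone of the called genes was higher, at 61.1, 65.0 and 70.8 in controls against 73.5, 77.2 and 77.8 with the drug. S100A6 (19.8 ± 2.26 and 18.3 ± 0.484), ANXA5 (41.4 ± 3.35 and 39.6 ± 2.19), ANXA6 (2.12 ± 0.386 and 2.65 ± 0.396) and ANXA11 (26.0 ± 3.07 and 27.3 ± 3.25) had groups that overlapped. ANXA9 lay at 1.73, 1.18 and 1.18 in controls and 0.863, 0.859 and 0.755 with the drug. S100A13 lay at 43.1, 43.8 and 50.3 and 39.7, 41.3 and 39.5, and S100A10 at 8.41, 9.60 and 7.21 and 6.35, 5.78 and 5.70. ANXA9, S100A13 and S100A10 were lower without overlap but were not called. For ANXA9 too the lack of overlap followed from the filter. S100A11 lay at 3.01, 4.84 and 4.15 and 2.83, 3.59 and 2.55, ANXA7 at 45.6 ± 0.731 and 48.2 ± 1.69, and S100A2 at 1.45 ± 0.448 and 1.33 ± 0.919, all with overlap.

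By the test, 8 of 19 members were called in H211, 7 lower and 1 higher, where 18.6% of all genes were called (9.61% lower, 8.95% higher). As this comparison chose the list, nothing is read from that count. For 11 members the groups did not overlap, 1 higher and 10 lower, against 35.4% of all genes (17.0% and 18.4%). The median log2 difference of the 19 was -0.32, against 0.00 for all tested genes. The non-overlap count and this median include ANXA1 and S100A14, by which the list was chosen. They also include ANXA9 and ANXA13, whose lower levels the filter fixed, so nothing is read from them either. Without control replicate 1, one of the libraries with myeloid transcripts, 5 were called, and 4 without H82 ORY-1001 replicate 3, H211 control replicates 1 and 2 and H211 ORY-1001 replicate 3, which earlier work on these data set apart by blood transcripts. ANXA13 and ANXA9 then no longer passed the filter. Treated H82 replicates 1 and 2, with myeloid sums of 35.0 and 38.5, stayed in that last fit, which leaves a single H211 control library.

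In H82, where the comparison was not used to choose the list, 9 of 19 genes were called with ORY-1001, 4 higher and 5 lower, against 43.0% of all tested genes (19.1% higher, 23.9% lower). The members' share of 47.4% was near this background, and their median log2 difference was -0.09 against -0.02 for all genes. Of the S100 genes 1 rose and 2 fell among 9 tested, and of the annexins 3 rose and 3 fell among 10. Each treated library here also held more myeloid transcripts than any control. With treated replicates 1 and 2 of H82 and treated replicate 3 of H211 left out together, 10 of 19 were called, 4 higher and 6 lower. That fit has a single treated H82 library, assumed to vary as the other groups do. With treated replicate 3 of H82 among 4 libraries left out, 9 of 17 were called.

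Among annexins that fell in H82, ANXA5 lay at 53.5, 52.8 and 57.8 in controls and 38.0, 37.4 and 37.3 with the drug, 1.46-fold lower (log2 difference -0.53, SE 0.0617, adjusted p = 4.61e-05). ANXA4 lay at 25.7, 27.2 and 27.1 and 20.3, 15.8 and 18.5, 1.47-fold lower (log2 difference -0.54, SE 0.0729, adjusted p = 0.000138). ANXA1 lay at 4.53, 3.50 and 3.75 and 2.21, 2.80 and 1.72, 1.75-fold lower (log2 difference -0.61, SE 0.110, adjusted p = 0.000939). The groups did not overlap for any of the 3. This held for 9 of the 19 members, 4 higher and 5 lower, and for 52.3% of all tested genes (23.6% and 28.7%). The ANXA1 level in H82 controls was 1.09% of that in H211 controls and 0.626% with the drug. Of the 7 tuft-cell markers, POU2F3, AVIL, TRPM5, BMX and ASCL2 stood at 0.820%, 0.864%, 0.821%, 0.715%, 0.483% of their H211 control level in H82 controls, and at 0.592%, 0.607%, 0.608%, 0.604%, 0.444% with the drug. SOX9 stood at 0.813% and, with the drug, at 0.861%. CHAT was higher in H82 than in H211, at 233% and 209%. The summed level of the 7 markers was 21.8 to 28.3 and 20.3 to 23.1, ranges that overlapped, and no marker was at 0. Whether RNA of H211 contributes to the low ANXA1 values of H82 was not tested.

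Annexins that rose in H82 were led by the most abundant one. ANXA2 (chromosome 15, 60347134 to 60402883, minus strand) rose from 219, 231 and 222 to 318, 279.9 and 290, 1.32-fold (log2 difference 0.40, SE 0.0596, adjusted p = 0.000260), and reached 59.8% of annexin transcripts. ANXA7, or synexin, rose from 45.4, 45.4 and 44.3 to 59.7, 54.2 and 55.3, 1.25-fold (adjusted p = 0.000173). ANXA3 rose from 0.409, 0.253 and 0.432 to 1.15, 1.17 and 0.961, 3.00-fold at a low level (log2 difference 0.62, SE 0.0842, adjusted p = 0.000138). All treated libraries were above all controls for these 3 genes. ANXA6, at 69.5 ± 0.980 and 68.2 ± 3.13, ANXA11, at 16.7 ± 2.26 and 15.0 ± 1.74, and ANXA9 had adjusted p = 0.846, 0.384 and 0.259. The sum of all annexins was 433 to 448 in controls and 473 to 523 with the drug.

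S100 transcripts of H82 were lower in sum with the drug, 324 to 366 against 399 to 418 in controls. S100A16 fell from 76.9, 75.0 and 70.6 to 51.5, 48.4 and 49.8, 1.49-fold lower (log2 difference -0.56, SE 0.0754, adjusted p = 0.000126). S100A1 fell from 111, 118 and 116 to 95.6, 87.3 and 91.4, 1.26-fold lower (log2 difference -0.33, SE 0.0714, adjusted p = 0.00328). Its neighbour S100A13 was at 199, 207 and 194 and 200, 165 and 163, with treated replicate 1 inside the control range (log2 difference -0.19, SE 0.0787, adjusted p = 0.0726); without that library its adjusted p = 0.00497, and without H211 control replicate 3 it was 0.0491. S100A11, the partner of annexin A1, rose from 3.25, 4.33 and 2.64 to 4.86, 6.32 and 7.57, 1.84-fold (log2 difference 0.72, SE 0.189, adjusted p = 0.00960). S100A6 lay at 3.68 ± 0.853 and 4.27 ± 0.885, S100A10 at 1.86 ± 0.746 and 1.62 ± 0.0544, and S100A2, an S100 protein of basal epithelium, at 2.02 ± 0.771 and 2.55 ± 1.00. With S100A14 they had adjusted p = 0.374, 0.719, 0.604 and (S100A14) 0.251, and S100A14 was under 1 in every H82 library.

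Set side by side, the log2 changes with the drug were -0.16 in H82 and -2.51 in H211 for S100A14, and -0.61 and -2.36 for ANXA1. The difference between the 2 drug effects was called for 8 of 19 members, 1 higher and 7 lower in H211, where 32.1% of all genes were called (17.8% higher, 14.3% lower). This contrast contains the one that chose the list, so nothing is read from the count. The 7 lower include ANXA13, whose lower level with the drug in H211 the filter fixed.

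**Figure D3:**
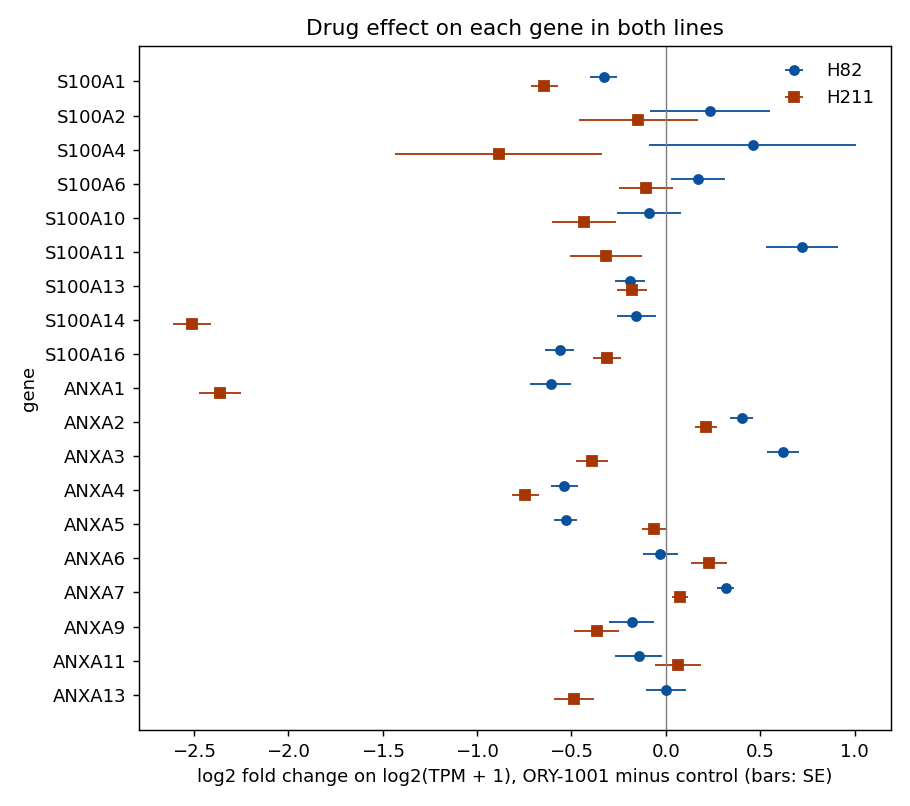
The log2 fold change with ORY-1001 on the log2(TPM + 1) scale is plotted for each tested gene, circles for H82 and squares for H211, with bars of 1 SE from the fit over 12 libraries. S100A14 and ANXA1 lie at -2.51 and -2.36 in H211, and S100A11 and ANXA3 lie to the right of 0 in H82 and to the left in H211.

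ANXA2 and S100A10, whose proteins form a heterotetramer, were not in proportion at the RNA level. On the per-length TPM scale the ratio of ANXA2 to S100A10 in H82 was 213, 111 and 89.9 for vehicle and 195, 180 and 175 after treatment. In H211 it was 7.26, 6.77 and 9.83 and 11.6, 13.3 and 13.6. Every H82 library was above every H211 library, and in H211 the treated libraries were above the controls, while in H82 the groups overlapped. The pseudogenes ANXA2P1, ANXA2P2 and ANXA2P3, which resemble ANXA2, were listed under 1 in all libraries, and how reads shared with them were divided is not known.

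S100A8 and S100A9, which form calprotectin of neutrophils and monocytes, and their relative S100A12 were present in 1 library. In H211 controls S100A8 lay at 0, 58.1 and 0.196, S100A9 at 0, 57.7 and 0 and S100A12 at 0, 8.55 and 0. In the other 11 libraries S100A8 and S100A9 did not exceed 0.694 and 0.493, and S100A12 was listed at 0. The same replicate 2 held LYZ, lysozyme, at 23.0, TYROBP at 10.9 and FCN1, a monocyte ficolin, at 10.5, and its sum over all S100 genes was 248 against 113 and 122.9 in replicates 1 and 3. Leaving out these 3 genes, S100 sums were 113 to 123.4 in H211 controls and 83.9 to 86.0 with ORY-1001.

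S100A4, a myosin-binding S100 protein also made by leukocytes and fibroblasts, varied along with some of these transcripts. In H82 it lay at 2.56, 2.33 and 3.78 for vehicle and 4.94, 6.25 and 2.43 after treatment, and in H211 at 4.15, 11.9 and 2.29 and 2.16, 0.616 and 5.78. Its 4 highest values came from H211 control replicate 2, treated H82 replicates 2 and 1 and treated H211 replicate 3, the only libraries with LYZ above 1, at 23.0, 18.7, 15.98 and 16.05 in that order. S100A4 had adjusted p = 0.547 for the drug in H82. The part of blood-cell RNA in its level was not tested. Of 7 squamous cell markers 3 were at 0 in all libraries and KRT10 made up most of the rest, at 69.4, 64.3 and 62.0 in H211 controls and 26.9, 30.97 and 32.9 in H82 controls.

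**Figure D4:**
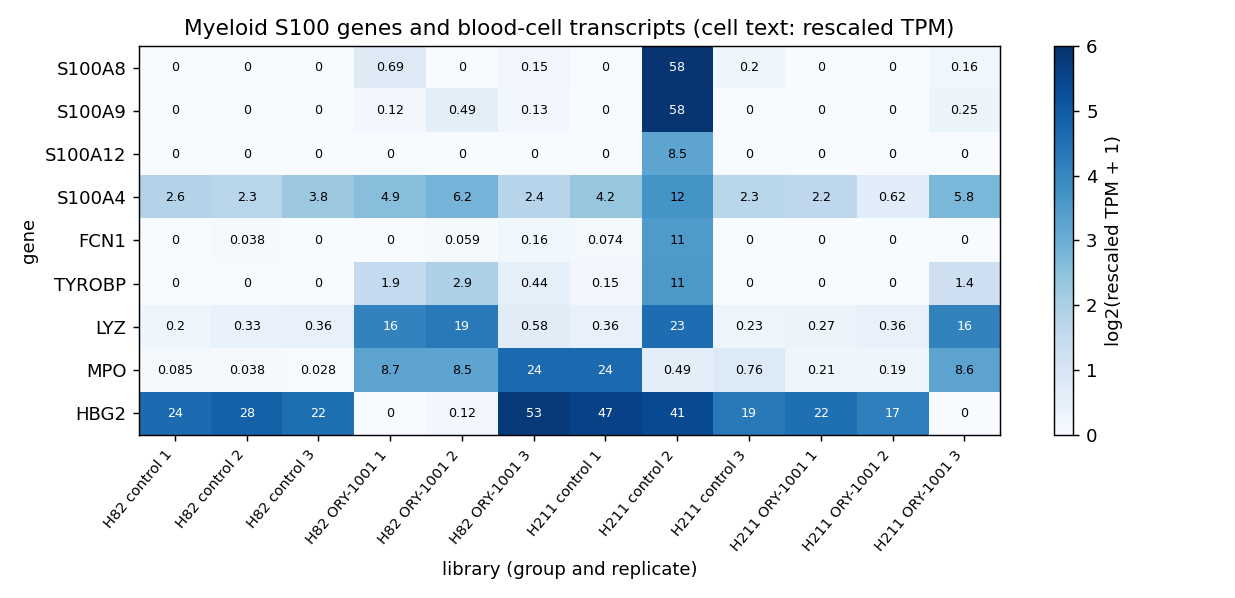
Levels in TPM are written in each cell for 9 genes in the 12 libraries, and the shade gives log2(TPM + 1). S100A8, S100A9, S100A12, FCN1 and TYROBP peak in H211 control replicate 2, and S100A4 is highest in the libraries with LYZ.

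Partners and receptors of these proteins were read from lists set by function. Of 12 cytoplasmic partners and membrane repair genes 8 were tested, and in H82 5 rose and 0 fell with ORY-1001 (4 rose with median-of-ratios scaling or quantile normalization). Of all genes 43.0% were called there, 19.1% higher and 23.9% lower. CACYBP, which binds S100A6, rose from 264 ± 9.03 to 322 ± 8.44 (log2 difference 0.28, SE 0.0359, adjusted p = 8.43e-05), and GCA, or grancalcin, from 3.79 ± 0.204 to 6.28 ± 1.07 (adjusted p = 0.000533). The median log2 difference of the 8 was 0.18 against -0.02 for all genes. In H211 under the drug 1 of the 8 was called, higher, against 18.6% of all genes (8.95% higher). Between controls 3 were higher in H211 and 3 in H82 (4 and 1 with totals without mitochondrial genes), where 80.5% of all genes were called (39.7% and 40.8%), among them GCA, 12.7-fold higher in H211, and AHNAK, a large scaffold held by the annexin A2-S100A10 complex, at 1.69 ± 0.340 in H211 and 0.147 ± 0.0423 in H82. AHNAK passed the filter only through H211, so it had to be higher there and its p is not given. The receptors FPR1, FPR2 and FPR3, through which annexin A1 acts, stayed under 1 in all libraries, as did TLR4. BSG, or basigin, one of 2 receptors tested, rose in H82 from 981 ± 36.0 to 1207 ± 30.2 (log2 difference 0.30, SE 0.0412, adjusted p = 0.000150), and AGER had adjusted p = 0.691. Of 7 plasminogen genes only the receptor PLAUR and the inhibitor SERPINE2 passed the filter, with adjusted p = 0.889 and 0.0999 in H82. SERPINE2 was 4.68-fold higher in H82 controls than in H211 controls (adjusted p = 1.23e-08). None of 7 genes for S100-fused proteins of the epidermis passed the filter.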

How the data were processed

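Messenger RNA from 12 libraries was sequenced in paired ends. The build was hg38, per the submitters' processing notes, which list DESeq2, featureCounts, R 4.0.4, Salmon 1.1.0, sleuth 0.30.0, STAR 2.5.2b, Subread 1.5.2 and Trimmomatic 0.36. Tool roles, their order and the annotation release are not given in the sources used. Values deposited by the authors are a signal, TPM whose totals differ between libraries and which were therefore treated as rescaled. Read counts were not analysed here, so depth and counting error are unknown. Libraries were grouped by the sample descriptions. log2(TPM + 1) of all 12 libraries was modelled by 4 group means with limma 3.58.1 (eBayes with a trend) in R 4.3.3, over 15456 genes at 1 or more in 3 libraries, with two-sided p-values adjusted over all of them. The fit was tested on simulated data for the H82 drug comparison, with 200 changed genes in each of 10 simulations. It recovered 53% of 1.5-fold and 85.3% of 3-fold changes, with 4.81% false calls. A gene not called may therefore still have changed. The members and gene lists were chosen with earlier results of these data known. All members are named; from each other list at most 2 genes with the smallest p in H82 and 2 between the controls are named, and blood, squamous and line markers as values. Alternatives changed the pseudocount, filter, scaling, variance prior, replicate block and libraries. Same-numbered control and treated libraries did not deviate together (r = -0.0805 to 0.0449), so no pairing was assumed. Positions are from GENCODE release 29 and upstream sequences from RefSeq, which held 28 of the 31 genes, on GRCh38.p14.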

Additional observations from a re-analysis of the deposited data

Results flagged for a closer look

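The drug effects of the 2 lines differed for 8 of the 19 tested genes by the term for that difference in the same fit, where 32.1% of all genes were called. This contrast contains the comparison that chose the list, so its values are a description with no p-value, and nothing is read from the count. The difference, H211 minus H82 on the log2(TPM + 1) scale, was -2.35 for S100A14, -1.75 for ANXA1, -1.04 for S100A11 and -1.01 for ANXA3. It was -0.49 for ANXA13, -0.32 for S100A1 and -0.24 for ANXA7. The call of S100A1 was lost under 13 alternatives, the replicate block among them, and its difference was -0.0087 with a pseudocount of 5. That of ANXA13 was lost under 8, and its difference was -0.89 with a pseudocount of 0.1. ANXA13 was not tested, and so could not be called, where any H211 control was left out or where the filter asked for 5 or more. The call of ANXA7 was lost under 2 alternatives and that of S100A11 under 1, all of which leave out libraries. For ANXA5 the difference was 0.47, the only one of the 8 above 0. ANXA3 was called higher in H82, with a log2 change of 0.62 (SE 0.0842). In H211 its log2 change was -0.39 (SE 0.0842), where the call is a description only. Its H211 call was lost with a pseudocount of 0.1 and without the 4 libraries set apart by blood transcripts. The log2 difference of S100A11 was 0.72 (SE 0.189) in H82 and -0.32 (SE 0.189) in H211, and that of ANXA5 -0.53 (SE 0.0617) and -0.06 (SE 0.0617). ANXA13 was listed at 0 in all H82 libraries, so its difference is its value in H211 alone, whose direction the filter fixed.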

How the results depend on the processing

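Among the alternatives run, no called gene changed direction in any comparison. In H82 the number called, 9, ran from 9 to 10 when each library was left out in turn and from 8 to 10 under the other alternatives, and between the controls 15 became 13 to 15 and 13 to 16. None of the 9 genes called in H82 lost its call where it was tested; S100A13 gained one under 5 alternatives, with quantile normalization, totals without mitochondrial genes, without the 3 libraries with LYZ, ELANE and MPO or without either of the single libraries named above. In H211 the 8 calls became 5 to 9 when each library was left out, with 5 without H211 control replicate 1, and 4 without the 4 libraries apart in blood transcripts (H82 ORY-1001 replicate 3, H211 control replicates 1 and 2 and H211 ORY-1001 replicate 3), where H211 controls are a single library assumed to vary like the other groups; the other alternatives reached 10 at most. For the difference between the lines the 8 calls became 6 to 8 when each library was left out. They became 5 both without those 4 libraries and without the 3 with LYZ, ELANE and MPO above 1 (treated replicates 1 and 2 of H82 and treated replicate 3 of H211), the latter chosen after seeing the data, and reached 10 at most under the others. Treated H82 replicates 1 and 2, also high in myeloid transcripts, stayed in the fit without those 4 libraries. Fewer libraries and genes entered these fits, and the cause was not tested further. With the replicate number as a block, calls numbered 9 in H82, 15 between controls, 8 in H211 and 7 for the difference. Depth is unknown, so no limit of detection can be given for genes listed at 0.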

Other observations

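Other calcium-binding and lipid-signalling genes were read in the same fit. Of 7 calmodulin and calpain genes all were tested. In H82, 3 rose (2 with totals without mitochondrial genes) and 2 fell with ORY-1001. Of all genes 43.0% were called there, 19.1% higher and 23.9% lower. CALM3 fell from 295 ± 3.58 to 228 ± 7.04 (log2 difference -0.37, SE 0.0341, adjusted p = 7.88e-06, limma) and the calpain subunit CAPN1 from 24.9 ± 1.56 to 15.7 ± 0.973 (adjusted p = 1.35e-05, limma). All 7 were higher in H211 controls than in H82 controls, where 39.7% of all genes were higher. All 7 were also called higher with median-of-ratios scaling, quantile normalization and totals without the mitochondrial genes, though the last scaling put the median of all genes at 0.14 in that comparison. The median of the list was 0.65 in the log2 difference, with CAPN1 3.53-fold and CALM3 2.00-fold higher.

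Of 9 copines, another family of calcium-dependent lipid binders, 5 were tested, and 1 rose and 3 fell in H82, where 43.0% of all genes were called (19.1% higher, 23.9% lower). CPNE8 fell from 11.97 ± 0.494 to 6.76 ± 0.719 (log2 difference -0.74, SE 0.140, adjusted p = 0.00127, limma) and CPNE1 from 167 ± 8.45 to 148 ± 4.40 (adjusted p = 0.0141, limma). Among 6 phospholipase A2 and eicosanoid genes, 1 was called higher and 1 lower in H82, against the same background. The one higher, ALOX5AP, lay at 0.796, 0.796 and 0.658 in controls and 1.52, 1.30 and 1.43 with the drug, and it passed the filter only through those treated libraries, so it had to be higher there. PTGS1, a cyclooxygenase, fell in H82 from 0.485, 0.466 and 0.452 to 0.196, 0.1002 and 0.297 (adjusted p = 0.0258, limma). PTGS2 and PTGS1 were 47.5-fold and 24.8-fold higher in H211 controls, and both passed the filter only through H211. The receptor gene ANXA2R, which was not on any list and was noticed after its values were seen, lay at 0.484, 0.433 and 0.0953 in H211 controls and at 1.83, 1.21 and 1.71 with ORY-1001.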
